A study of Homo sapiens with 17 samples.

Results

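The comparison described here sets HCT116 cells rescued with the P351A mutant of DGCR8 plus ALA against cells labelled as the same line and given a mock rescue, with 3 libraries in each group, 6 of the 17 in the series. HCT116 is a human colon carcinoma line, and all 15 rescue libraries were made from its DGCR8ΔCTT derivative, in which CRISPR-Cas9 deletion of the CTT, the C-terminal tail of DGCR8, left a functional knockout. The other rescue groups, each with 3 libraries and used here only for context, received wild-type DGCR8, C352A DGCR8 or P351A DGCR8 without ALA. The labels do not spell out ALA. They also leave out its dose and time, the vector, and whether the knockout line is a single clone. Hairpins with a mean of at least 10 scaled reads over the 15 rescue libraries were tested, which kept 336 of 1282. A scaled read is a whole read multiplied by a factor that the authors set for each library.

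Microprocessor, built of the nuclease Drosha and its RNA-binding partner DGCR8, cuts the hairpin of a microRNA precursor out of its primary transcript. Dicer then trims the hairpin to the mature microRNA, which finds its targets mainly through its seed, bases 2 to 8. The tail of DGCR8 binds Drosha, while a central region of DGCR8 binds heme. P351 and C352 are neighbouring residues of that heme-binding region, and the series title ties hemin to recognition of the apical loop, the single-stranded end of the hairpin. A few microRNAs bypass Microprocessor: the mirtrons are made by splicing, and the miR-320 and miR-484 hairpins form directly at transcription starts.

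The sequences shown first are mature microRNAs of the hairpins that carry the comparison, from RefSeq (GRCh38.p14), with the seed in capitals. The first set holds those of the 10 largest rises among hairpins at or above the median level whose groups did not overlap, with let-7a and miR-10a added as examples of their families; in it the members of let-7, of miR-30, and miR-103a with miR-107, each share a seed.
let-7i-5p: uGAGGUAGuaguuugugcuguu
let-7e-5p: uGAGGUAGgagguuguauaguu
let-7a-5p: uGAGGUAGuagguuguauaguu
miR-103a-3p: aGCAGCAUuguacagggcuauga
miR-107: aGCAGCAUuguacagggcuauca
miR-30a-5p: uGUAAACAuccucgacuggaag
miR-30c-5p: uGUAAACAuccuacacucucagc
miR-34a-5p: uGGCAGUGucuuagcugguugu
miR-193b-3p: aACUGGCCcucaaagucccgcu
miR-149-5p: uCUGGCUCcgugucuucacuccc
miR-101-3p: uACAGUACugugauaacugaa
miR-10a-5p: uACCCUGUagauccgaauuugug

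The second set holds microRNAs whose families did not move as a block. miR-16 and miR-424 share a seed, and miR-200c and miR-429 share a seed that miR-141 does not carry. miR-373 and miR-501 come from the falling hairpins with an entry in the table.
miR-16-5p: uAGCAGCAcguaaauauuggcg
miR-15b-5p: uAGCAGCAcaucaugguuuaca
miR-424-5p: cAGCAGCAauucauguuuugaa
miR-200c-3p: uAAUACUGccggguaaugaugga
miR-429: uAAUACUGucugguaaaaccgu
miR-141-3p: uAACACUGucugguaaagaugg
miR-373-3p: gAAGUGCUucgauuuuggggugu
miR-501-3p: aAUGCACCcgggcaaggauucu

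Depth and scale differed between the groups. The mock libraries held 146023 to 587214 reads on hairpins, and the P351A plus ALA libraries 1191542 to 1941805. After the authors' scaling the totals were 470110 to 587214 in mock and 1278191 to 1492954 in P351A plus ALA. mir-320a, a hairpin made without Microprocessor, took 10.8% to 12.4% of the mock reads and 5.94% to 7.13% of the P351A plus ALA reads. Across tested hairpins, log2 values correlated at Pearson r of 0.957 to 0.969 between mock libraries, 0.969 to 0.989 between P351A plus ALA libraries and 0.840 to 0.901 between the groups, as a description across hairpins, which are not independent replicates. The labels do not say that the replicates came from separate cultures, so p-values measure the spread between these libraries.

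The 6 libraries with P351A DGCR8, with or without ALA, stood apart from the other 9 rescue libraries for some hairpins. mir-373 (chr19:53788705-53788773, plus strand, outside annotated genes), from a cluster known from embryonic stem cells, had no read in any of these 6 libraries and 1038 to 5176 scaled reads in each of the other 9. mir-202 and mir-372 had 0 to 1.07 scaled reads in the 6 and at least 15.5 in the 9. In all, 14 hairpins (4.17%) had the 6 libraries wholly above (5) or wholly below (9) the 9, and 5 of the rises and 8 of the falls reported below are among them. Whether this comes from P351A or from the cells that carried it cannot be told apart here, and it bears on P351A plus ALA against mock because the mock libraries are among the 9.

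On the authors' scale most tested hairpins were higher with P351A plus ALA. limma, a linear model with moderated errors fitted to log2(scaled reads + 1) over all 15 libraries, called 166 hairpins risen (49.4%) and 30 fallen (8.93%) at an adjusted p under 0.05, and 140 did not pass. Copies of the same microRNA share reads, so these calls come from 138 and 24 names. The median log2 fold change was 0.87, with quartiles of -0.072 and 1.68, and 242 hairpins lay above 0 against 94 below. Of the rises, 143 were at least 2-fold and 65 at least 4-fold; of the falls, 23 were at least 2-fold. The 3 P351A plus ALA libraries lay wholly above the 3 mock libraries for 157 hairpins (46.7%) and wholly below for 34 (10.1%).

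The split between rises and falls depended on the scale. Centring each library on its median hairpin gave 85 rises and 95 falls, centring on DGCR8-independent hairpins 64 and 75, and equal library totals 51 and 144. The median log2 fold change under these scalings was 0.026, 0.059 and -0.55. All 51 hairpins called risen with equal totals were called risen under all 4 scalings, and the 30 falls were called under all 4 as well. This agreement was largely fixed in advance and is no separate support. The other scalings moved the changes downward, which deepens a fall, and equal totals moved them furthest. Statements below are on the authors' scale. A rise described without mention of the scalings may not hold under all 4, and a hairpin that did not pass here can be called fallen under another scaling.

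The let-7 family, which restrains growth genes such as RAS and HMGA2, rose throughout. All 12 hairpins of the family passed, beside 49.4% of all tested hairpins called risen, although the copies of let-7a and let-7f share reads. The family median log2 fold change was 2.53 against 0.87 over all tested hairpins. let-7i (chr12:62603686-62603769, plus strand, in an intron of a long noncoding RNA) measured 5830, 4353 and 4038 scaled reads in mock and 24938, 42239.5 and 55447 in P351A plus ALA. Its log2 fold change of 3.05 ± 0.28 (SE, adjusted p = 8.58e-08) was the highest of the family, and it holds under all 4 scalings. let-7e (chr19:51692786-51692864, plus strand, in an intron of SPACA6) went from 775, 695 and 634 to 4249, 4733 and 6568, a log2 fold change of 2.86 ± 0.25 (SE, adjusted p = 5.74e-08). let-7a-1 (chr9:94175957-94176036, plus strand) went from 11175, 7826 and 7312 to 43099.7, 45761 and 62597. For these 3 hairpins every P351A plus ALA library was above every mock library. let-7b was the lowest member at 1.09, and with equal totals it fell below 0 (-0.39); under that scaling 9 of the 12 members still rose and the family median was 1.05.

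mir-103a-1, mir-103a-2 and mir-107 lie in introns of the pantothenate kinase genes PANK3, PANK2 and PANK1, and the near-identical mature sequences printed above mean that their reads cannot be separated. mir-107 (chr10:89592747-89592827, minus strand) measured 2831, 2099 and 2010.3 scaled reads in mock and 24401, 33201 and 33269 in P351A plus ALA. Its log2 fold change was 3.71 ± 0.27 (SE, adjusted p = 9.19e-09). The 3 hairpins therefore count as 1 signal, which rose under all 4 scalings and lay 2.23 above mock even with equal totals. mir-101-1 (chr1:65058434-65058508, minus strand), whose microRNA represses the histone methyltransferase EZH2, went from 594, 505 and 466 to 2506, 5434 and 4253. That is a log2 fold change of 2.90 ± 0.31 (SE, adjusted p = 6.48e-07), and mir-101-2, which makes the same microRNA, had nearly the same change; both rose under all 4 scalings.

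All 6 hairpins of the miR-30 family, abundant in epithelia, rose, beside 49.4% of all tested hairpins, with a median of 2.76. mir-30a (chr6:71403551-71403621, minus strand, in introns of 2 long noncoding RNAs) measured 224, 287 and 298 scaled reads in mock and 1363, 2851 and 3569 in P351A plus ALA. Its log2 fold change was 3.16 ± 0.34 (SE, adjusted p = 6.48e-07), and it rose under all 4 scalings. mir-30c-1 and mir-30e both lie in introns of NFYC and differed in size: mir-30c-1 rose by 2.86 ± 0.59 and mir-30e by 0.94 ± 0.30 (SE). mir-30e is the weaker call of the pair, since it no longer passed without mock library b (adjusted p = 0.073) or P351A plus ALA replicate 2 (0.061) or 3 (0.057), and it lay at -0.54 with equal totals. mir-30c-1 was uneven among replicates, at 1301, 1146 and 366 in P351A plus ALA against 187, 64.4 and 115 in mock.

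Several hairpins outside these families had large rises. mir-149 (chr2:240456001-240456089, plus strand, in an intron of GPC1) had the largest among hairpins at or above the median level whose groups did not overlap, from 30, 22.5 and 7.52 scaled reads in mock to 818, 741 and 72.2, a log2 fold change of 4.27 ± 0.71 (SE, adjusted p = 8.65e-05). Replicate 3 of P351A plus ALA lay far below replicates 1 and 2. mir-34a (chr1:9151668-9151777, minus strand), a target of the tumour suppressor p53, went from 164, 57.9 and 72.7 to 624, 1487 and 1041, a log2 fold change of 3.47 ± 0.46 (SE, adjusted p = 8.50e-06). mir-34c moved alike (3.45) at far lower reads. mir-193b (chr16:14303967-14304049, plus strand, in an intron of its host noncoding RNA) went from 48, 22.5 and 15.0 to 194.2, 325 and 137, a log2 fold change of 2.96 ± 0.47 (SE, adjusted p = 5.26e-05). The groups did not overlap for any of these hairpins, and mir-149, mir-34a, mir-34c and mir-193b rose under all 4 scalings.

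Of the most abundant hairpins, mir-21 (chr17:59841266-59841337, plus strand, within VMP1), which is raised in many carcinomas, led the P351A plus ALA libraries with 140549, 222676 and 207335 scaled reads against 55688, 32229.7 and 27726 in mock. Its log2 fold change was 2.34 ± 0.28 (SE, adjusted p = 2.66e-06). mir-222 (chrX:45747015-45747124, minus strand), which represses the cell cycle inhibitor CDKN1B, went from 17226, 18434 and 17235 to 87298, 84201 and 95346. mir-31 (chr9:21512115-21512185, minus strand, outside annotated genes on its strand) went from 16546, 11281 and 10222 to 76359, 78458 and 65645, a log2 fold change of 2.56 ± 0.23 (SE, adjusted p = 6.32e-08). These 3 rose under all 4 scalings and had no overlap between groups. In mock the order was different: mir-320a came first, followed by mir-320b-2 and mir-21.

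Among the hairpins at HOX clusters, which pattern the body axis, 3 of 5 rose, near the 49.4% of all tested hairpins. mir-10a (chr17:48579838-48579947, minus strand, in an intron of HOXB3) measured 5385, 4015 and 4346 scaled reads in mock and 32699, 33345 and 29023 in P351A plus ALA. Its log2 fold change was 2.80 ± 0.24 (SE, adjusted p = 3.97e-08) on the authors' scale, and it rose under all 4 scalings, by 1.32 with equal totals. mir-10b and mir-196b rose too, the latter by 1.48, while the mir-196a copies did not pass: mir-196a-1 stood at -0.068 (adjusted p = 0.885). With median centring 2 of the 5 rose and 2 fell. The 3 hairpins of the miR-99/100 family did not pass on the authors' scale, while 2 of them fell with either centring and all 3 with equal totals. mir-100 stood at 16110, 10032 and 10029 in mock and 15313, 12616 and 6302 in P351A plus ALA. Values from mir-99a (-0.45) to mir-99b (0.79) spanned 0, and mir-99b passed without P351A plus ALA replicate 3 (1.07, adjusted p = 0.025).

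The miR-17-92 family, linked to cell proliferation, had 10 of 12 tested hairpins risen, beside 49.4% of all tested hairpins, with a median of 1.57. Its members ranged from mir-17, at 1239, 460.4 and 556 in mock and 732, 1124 and 472 in P351A plus ALA with a log2 fold change of 0.097 (adjusted p = 0.87), to mir-92a-2, at 2.67. The miR-181 family had 5 of 6 risen and a narrow range, from 1.10 for mir-181a-2 to 1.62 for mir-181b-1. With equal totals the miR-17-92 median was 0.096 with 2 rises, and the miR-181 median was -0.21 with none. The 6 hairpins of the mir-23, mir-27 and mir-24 clusters had 5 rises, from 0.95 for mir-27a to 1.63 for mir-23a, while mir-24-1 did not pass (0.71, adjusted p = 0.105); with equal totals their median was -0.47. All 3 miR-26 hairpins, in introns of CTDSP phosphatase genes, rose by 1.13 to 1.30, but their median with equal totals was -0.34.

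The microRNAs that mark the epithelium moved unevenly. In the miR-200 family, which keeps epithelial cells from turning mesenchymal by repressing ZEB1 and ZEB2, 2 of 5 hairpins rose, 1 fell and 2 did not pass. Over all tested hairpins 49.4% rose and 8.93% fell. The family median of 0.81 turned to -0.66 with equal totals. mir-429 (chr1:1169005-1169087, plus strand) rose by 2.62 ± 0.38 (SE, adjusted p = 2.40e-05), while mir-141 (chr12:6964097-6964191, plus strand) fell by 1.41 (± 0.42, SE, adjusted p = 0.00978) on the log2 scale. mir-141 no longer passed without mock library a (adjusted p = 0.053), the library in which it was highest. The gut-epithelial mir-192, mir-194 and mir-215 hairpins had 3 of 4 risen, led by mir-194-1 at 2.07, on summed levels of 74.0 to 115 scaled reads in mock and 169 to 198 in P351A plus ALA; with equal totals their median was -0.094. From 1 cluster, mir-183 rose by 0.96 and mir-182 by 0.53, and their neighbour mir-96 stood at 312, 347 and 57.6 against 114, 86.9 and 100.3 (adjusted p = 0.153); with equal totals the median of the 3 was -0.59.

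Other lists gave mixed counts. In the miR-29 family, known for repressing collagen genes, mir-29a (2.71) and mir-29c rose, and both copies of mir-29b did not pass. mir-301a led the miR-130 family at 2.70, with 3 of 5 risen, near the 49.4% of all tested hairpins. Its lowest member was mir-130b at 0.61, and the family median was -0.50 with equal totals. In the miR-125 family mir-125a and mir-125b-2 rose, yet mir-125b-2 ran from 38, 0 and 2.51 in mock to 412, 184 and 30.7 in P351A plus ALA and the groups overlapped; mir-125b-1 did not pass. mir-148a rose by 2.13 and mir-148b did not pass. mir-28 (1.42, lost without mock library b with an adjusted p of 0.055) and mir-151a rose, and mir-151b did not pass; with equal totals the median of the 3 was -0.53. mir-191 rose by 0.58 and its neighbour mir-425 stood at 1.10 (adjusted p = 0.0535).

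**Figure D1:**
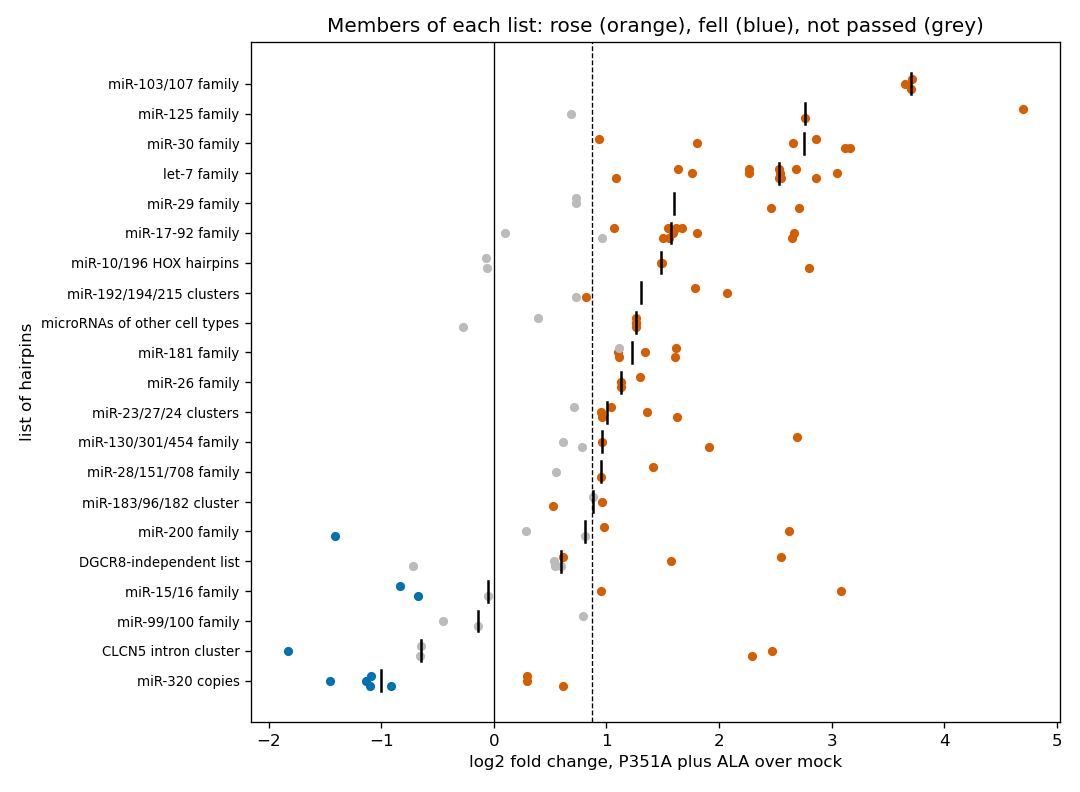
Log2 fold change of P351A plus ALA over mock (horizontal axis) for each tested member of the lists with at least 3 tested hairpins, 1 row per list, with a black bar at the list median and a dashed line at the median of all tested hairpins, 0.87. The mir-103a and mir-107, miR-30 and let-7 hairpins lie to the right of 0 throughout. So do all members of several other lists, among them miR-26, miR-181 and miR-17-92. The miR-15/16, miR-200, CLCN5 and miR-320 lists hold both rises and falls.

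Of the falls, mir-373 was the largest. It measured 4297, 4095 and 1634 scaled reads in mock and had 0 reads in all 3 P351A plus ALA libraries, against 6221 reads in mock. Setting 3 reads over the P351A plus ALA group as the limit that a count of 0 allows, mir-373 was at least 3765-fold lower. The neighbouring mir-372 (chr19:53787890-53787956, plus strand) had 2 reads in P351A plus ALA against 65 in mock, a scaled ratio of 59.0 (95% exact interval 15.7 to 498, counting error only). mir-202, named here because it was among the 5 hairpins with 3 or fewer reads in a group, had 1 read against 96, a ratio of 174 (30.5 to 6956). As given above, these 3 were also at or near 0 with P351A alone.

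The other falls were smaller. mir-4286 went from 529, 328 and 346 in mock to 57.9, 18.4 and 48.4, a log2 fold change of -3.36 ± 1.12 (SE, adjusted p = 0.0178), and was erratic elsewhere, at 1802, 436 and 25.7 in the wild-type rescue; without P351A plus ALA replicate 2 its adjusted p was 0.069. mir-501 (chrX:50009722-50009805, plus strand, in an intron of CLCN5) went from 138, 158 and 125.3 to 51.5, 51.7 and 21.5, a log2 fold change of -1.83 ± 0.41 (SE, adjusted p = 0.00135). In the same intron cluster mir-660 and mir-532 rose, by 2.47 and 2.30. Thus 2 of 5 tested members rose and 1 fell on the authors' scale, beside 49.4% and 8.93% of all tested hairpins. In 3 of the 5 the P351A plus ALA libraries lay wholly below mock, beside 10.1% of all tested hairpins. Under each of the other 3 scalings 2 rose and 3 fell. mir-7974, mir-4454, mir-6724-4 and mir-3928 fell by 0.88 to 1.35 on the log2 scale, from means of 154 to 575 scaled reads in mock to 83.3 to 228 in P351A plus ALA. The 4 copies of mir-6724 have identical values and count as 1 signal, and mir-3928 no longer passed in 4 of the 6 fits that left out a library (adjusted p from 0.075 to 0.123).

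mir-16-1 (chr13:50048973-50049061, minus strand) measured 6751, 5077 and 6462 scaled reads in mock and 2833, 4737 and 2915 in P351A plus ALA, a log2 fold change of -0.83 ± 0.24 (SE, adjusted p = 0.00751). miR-16 restrains the cell cycle, and its hairpins mir-16-1 and mir-16-2 share reads. mir-424 (chrX:134546614-134546711, minus strand), which carries the same seed, went the other way, from 20, 12.9 and 27.6 to 142, 277 and 128, a log2 fold change of 3.09 ± 0.37 (SE, adjusted p = 2.85e-06). mir-15b rose by 0.95 (adjusted p = 0.0266) and lost its call without mock library b or c or P351A plus ALA replicate 1 or 2 (adjusted p from 0.072 to 0.102). mir-15a was at -0.053. The miR-15/16 list thus had 2 rises and 2 falls among its 5 tested hairpins, beside 49.4% and 8.93% of all tested hairpins. Under the other scalings it had 1 rise with 3, 2 and 3 falls (median centring, DGCR8-independent centring and equal totals). The fall of mir-16-2 did not pass without mock library a or c or P351A plus ALA replicate 1 or 3 (adjusted p from 0.059 to 0.084), nor in a fit of the 2 groups alone (0.054).

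Hairpins cut from the same primary transcript allow a comparison within each library, in which the scale factor cancels apart from the 1 added before the logarithm. For 22 transcripts with at least 2 tested hairpins, the member with the highest change was divided by the member with the lowest, a pair chosen from these values and so given without a test. In 12 of the 22 the ratio in every P351A plus ALA library was above that in every mock library, and in 7 of the 22 the 6 libraries with P351A DGCR8 lay wholly apart from the other 9. The log2 ratio of mir-92a-1 to mir-17 ran from 2.77 to 3.11 in mock and 2.31 to 2.82 in wild-type rescue, against 5.04 to 5.29 with P351A alone and 5.05 to 5.76 with P351A plus ALA. mir-92a-1 reads are shared with mir-92a-2 of another transcript. For mir-429 over mir-200a the ratio was -1.03 to -0.84 in mock, and it reached 0.94 to 0.96 with P351A alone and 1.17 to 1.71 once ALA was added. In both transcripts every P351A and P351A plus ALA library lay above every mock and wild-type library, and for mir-429 over mir-200a P351A plus ALA also lay wholly above P351A alone.

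The log2 ratio of mir-200c to mir-141 was -3.61 to -2.56 in mock, -3.35 to -2.70 in wild type and -1.46 to -1.06 with P351A alone, while P351A plus ALA reached -1.50 to -0.067. let-7e over mir-99b stood at -1.69 to -1.24 in mock, -0.95 to -0.28 with P351A alone and -0.046 to 1.46 with P351A plus ALA, which lay wholly above P351A alone. mir-29a over mir-29b-1 stood at 2.87 to 3.36 in mock, 5.87 to 6.10 with P351A alone and 4.82 to 5.51 with P351A plus ALA, here wholly below P351A alone. mir-15b over mir-16-2 stood at -6.55 to -6.25 in mock, -5.02 to -4.74 with P351A alone and -4.90 to -4.40 with P351A plus ALA, and the last 2 overlapped. mir-29b-1 reads are shared with mir-29b-2, and mir-16-2 reads with mir-16-1, each of another transcript. A different order was seen for mir-222 over mir-221: 0.62 to 1.83 in mock, -0.65 to 0.23 with P351A alone, 2.21 to 2.30 with P351A plus ALA and 0.28 to 1.38 in wild type. There P351A lay lowest and P351A plus ALA lay above mock and wild type, but within the 2.05 to 2.90 of C352A. The hairpins of 4 of these transcripts are printed with the stretch between the mature arms, which includes the apical loop, in capitals; the first of each pair is the member with the higher change.
mir-92a-1: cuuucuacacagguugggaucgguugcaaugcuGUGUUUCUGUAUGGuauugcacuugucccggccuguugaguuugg
mir-17: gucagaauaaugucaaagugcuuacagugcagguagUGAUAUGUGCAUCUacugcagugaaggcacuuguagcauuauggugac
let-7e: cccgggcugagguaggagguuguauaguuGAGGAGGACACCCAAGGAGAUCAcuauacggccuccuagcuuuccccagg
mir-99b: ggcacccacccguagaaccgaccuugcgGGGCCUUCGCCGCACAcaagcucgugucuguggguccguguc
mir-29a: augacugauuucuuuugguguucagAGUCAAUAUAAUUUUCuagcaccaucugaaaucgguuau
mir-29b-1: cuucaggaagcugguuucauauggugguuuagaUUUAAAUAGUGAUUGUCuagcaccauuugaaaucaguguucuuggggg
mir-15b: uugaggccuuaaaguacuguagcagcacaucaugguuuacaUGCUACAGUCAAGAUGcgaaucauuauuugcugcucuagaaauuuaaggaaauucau
mir-16-2: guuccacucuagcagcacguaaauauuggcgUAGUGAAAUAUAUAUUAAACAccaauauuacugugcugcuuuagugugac
The positions are chr13:91351314-91351391 and chr13:91350605-91350688 (plus strand, within MIR17HG), chr19:51692786-51692864 and chr19:51692612-51692681 (plus strand, intron of SPACA6), chr7:130876747-130876810 and chr7:130877459-130877539 (minus strand, within LINC-PINT), and chr3:160404588-160404685 and chr3:160404745-160404825 (plus strand, intron of SMC4). The stretches in capitals are 14, 14, 23, 16, 16, 17, 16 and 21 bases long, so the member with the higher change has neither the longer nor the shorter stretch throughout.

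Against P351A alone, without ALA, 150 hairpins were higher with ALA (44.6%) and 10 lower (2.98%), with a median log2 difference of 0.81. This comparison shares the P351A plus ALA libraries with the one above, and its split also moved with scale, to 45 and 105 with median centring and 74 and 61 with equal totals. The count of lower hairpins was 4, 2 and 5 without P351A replicate 1, 2 and 3, and 5 and 3 without P351A plus ALA replicate 1 and 3. mir-149 was the most raised of the hairpins named here, at 21.8 ± 2.82 (SD, n = 3) in P351A and a log2 difference of 3.97 ± 0.71 (SE, adjusted p = 2.06e-04). mir-30a, at 228 ± 18.4 (SD, n = 3) in P351A, was 3.39 higher with ALA (adjusted p = 9.81e-07). mir-193b, at 24.1 ± 2.66 (SD, n = 3), was 3.05 higher (adjusted p = 5.38e-05). mir-10a, at 5908 ± 122 (SD, n = 3), was 2.42 higher (adjusted p = 9.67e-07). P351A alone differed from mock by 0.30, -0.23, -0.084 and 0.38 in these 4 hairpins, and none of those differences passed.

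Other rises over mock were present in part before ALA. mir-107 stood at 17082 ± 2033 (SD, n = 3) in P351A, and was 0.82 ± 0.27 (SE) higher with ALA (adjusted p = 0.0193). let-7a-1 stood at 34252 ± 4669 and was 0.55 higher (adjusted p = 0.0487). mir-101-1 stood at 2365 ± 349.8, and its difference of 0.72 ± 0.31 (SE) did not pass (adjusted p = 0.065). mir-92a-1, mir-429, mir-31, mir-660 and mir-532 did not pass against P351A either, with differences from -0.095 to 0.81. Over all tested hairpins the median difference from P351A was 0.81, and 44.6% were called higher. By list, it was 1.94 for miR-30 (6 of 6 higher), 1.46 for mir-23, mir-27 and mir-24 (6 of 6) and 1.40 for miR-181 (5 of 6). For let-7 it was 0.75 (8 of 12) and for miR-17-92 0.46 (0 of 12, with 1 lower). These list values are on the authors' scale and were not made under the other scalings, which moved the split against P351A. The mir-183 cluster was 2.15 higher at the median (3 of 3): mir-182 stood at 7467 ± 1251 (SD, n = 3) in P351A, below the 16688 ± 1938 of mock.

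Against the wild-type rescue, 46 hairpins were higher with P351A plus ALA (13.7%) and 68 lower (20.2%), with a median log2 difference of -0.22. The higher count was 24 or 29 without P351A plus ALA replicate 1 or 2 and 25 without wild-type replicate 3, and the lower count 32 or 45 without P351A plus ALA replicate 1 or 3 and 37 without wild-type replicate 1. With only these 2 groups in the fit the counts were 18 and 31. mir-30a, at 3729 ± 929 (SD, n = 3) in wild type, differed by -0.61 ± 0.34 (SE, adjusted p = 0.165). mir-193b differed by -0.54 ± 0.47 (SE, adjusted p = 0.385) and mir-34a by 0.71 ± 0.46 (SE, adjusted p = 0.246), none of which passed. The let-7 family had 7 hairpins higher than in wild type and 1 lower, with a median difference of 0.87. The lower one was let-7i, at 70429.7 ± 29562 (SD, n = 3) there, with a difference of -0.78 (adjusted p = 0.0438). mir-10a, at 65995 ± 23541 (SD, n = 3) in wild type, was lower as well (adjusted p = 0.00465). All 5 HOX hairpins and 4 of 6 mir-23, mir-27 and mir-24 hairpins were lower than in wild type. Among the falls, mir-16-1 stood at 17175 ± 2515 (SD, n = 3) in wild type, a difference of -2.33 ± 0.24 (SE, adjusted p = 3.55e-06). mir-17 was -1.99 from wild type (adjusted p = 0.00335), at 3371 ± 2371 (SD, n = 3) there.

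The 46 hairpins (13.7% of all tested) higher with P351A plus ALA than with wild type included 7 of 12 let-7, all 3 mir-103a and mir-107, and both mir-101 hairpins. mir-107, at 10398 ± 5189 (SD, n = 3) in wild type, was 1.64 ± 0.27 (SE) higher (adjusted p = 3.62e-04). mir-101-1 was 1.54 higher (adjusted p = 0.00198), let-7e 1.11 (0.00381) and mir-532 1.64 (0.00312). These 4 hairpins were also higher in P351A alone than in mock, by 1.65 to 2.89 on the log2 scale, and each passed. The mir-149 difference of 1.93 (adjusted p = 0.0457) is close to the threshold, and its replicate 3 lay within the wild-type values. Of the 157 hairpins (46.7% of all tested) with P351A plus ALA wholly above mock, P351A alone was also wholly above mock in 81. Of the 34 (10.1%) wholly below, P351A alone was also wholly below in 29. Both comparisons use the same mock libraries, so part of this overlap is built in. The shares of all tested hairpins with P351A alone wholly above or below mock were not counted. In 118 of the 336 tested hairpins P351A plus ALA lay wholly above both mock and P351A. In 91 of these at least 1 wild-type library reached the lowest P351A plus ALA value.

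Hairpins made without Microprocessor also moved. mir-320a measured 63682, 56997 and 58878 scaled reads in mock and 91164, 95031 and 88662 in P351A plus ALA, a log2 fold change of 0.62 ± 0.094 (SE, adjusted p = 3.77e-05). With equal totals it was -0.86. Of the 8 miR-320 copies 3 rose and 5 fell, beside 49.4% and 8.93% of all tested hairpins. None rose under the other scalings, where 7 (median centring), 5 (DGCR8-independent centring) and 8 (equal totals) fell. Over all 336 tested hairpins 95, 75 and 144 fell under these 3 scalings. On the authors' scale mir-320b-2 rose by 0.29, whereas mir-320c-1 fell from 11751, 14768 and 13904 to 6950.1, 6709.7 and 7804, a log2 fold change of -0.91 ± 0.16 (SE, adjusted p = 1.92e-04), and mir-320c-2 was lowest at -1.45. The copies share reads. mir-320b-2 no longer passed without mock library b or c, or without P351A plus ALA replicate 1 or 2 (adjusted p from 0.054 to 0.083).

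mir-484 (chr16:15643294-15643372, plus strand, within NDE1), whose hairpin forms at a transcription start, went from 303, 248 and 396 to 3836, 2425 and 654, a log2 fold change of 2.55 ± 0.54 (SE, adjusted p = 8.49e-04). Its P351A plus ALA replicates differed widely, replicate 3 being the lowest as for mir-149. The mirtron mir-877 (chr6:30584332-30584417, plus strand, intron of ABCF1) did not pass against mock, with 2683, 4517 and 3484 in mock and 6397, 7013 and 2942 in P351A plus ALA. It was 3.43 ± 0.41 (SE) above P351A alone (adjusted p = 5.34e-06), where it stood at 486 ± 135 (SD, n = 3). mir-1226, another mirtron, did not pass against mock either (0.53, adjusted p = 0.153). mir-3615 rose by 1.58 (adjusted p = 0.00976), with groups that overlapped and calls lost without mock library b (0.071) or P351A plus ALA replicate 1 (0.053). Over the 7 tested DGCR8-independent hairpins 3 rose and none fell, beside 49.4% and 8.93% of all tested hairpins. With either centring 1 rose and 1 fell, and with equal totals none rose and 3 fell. DGCR8-independent centring makes the mean of this same list equal in all libraries, so its counts there are partly set by that choice. On the authors' scale the list had mir-3605 lowest at -0.72, and the median of 0.60 is under the 0.87 of all tested hairpins and turned to -0.86 with equal totals.

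DGCR8 mRNA is not measured in these libraries. Whether mir-1306 reads came from the DGCR8 gene or from the DGCR8 given back was not tested, and the labels leave out the vector. mir-1306 (chr22:20086058-20086142, plus strand) overlaps an exon of DGCR8. It had 1 read in the mock libraries and 530 in P351A plus ALA, a scaled ratio of 292 (95% exact interval 52.2 to 11550, counting error only). By library it measured 121, 161 and 213 scaled reads in P351A plus ALA, 14.4 ± 2.29 (SD, n = 3) in P351A and 39.4 ± 4.54 (SD, n = 3) in wild type. The difference from P351A was 3.40 ± 0.50 (SE, adjusted p = 4.13e-05), and from wild type 2.01 ± 0.50 (SE, adjusted p = 0.00737). mir-542 (chrX:134541341-134541437, minus strand), a neighbour of mir-424 on chromosome X, had 3 reads in mock and 193 in P351A plus ALA, a ratio of 35.4 (11.9 to 173). Both were named for their low mock reads.

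MicroRNAs that mark other cell types were few. Of 16 listed hairpins, 6 were tested, 4 of which rose, beside 49.4% of all tested hairpins, and 2 did not pass; under each of the other 3 scalings none rose and 1, mir-126, fell. Their summed level ran from 1163 to 1688 scaled reads in mock and from 1495 to 2555 in P351A plus ALA. The rises were the 3 copies of the neural mir-9, which share reads (277, 145 and 133 in mock, 300.4, 593 and 419.6 in P351A plus ALA for mir-9-1), and the stromal mir-143, which lost its call in 4 of the 6 fits that left out a library (adjusted p from 0.056 to 0.108). The other stromal marker, mir-145, did not pass. The endothelial mir-126 did not pass either, at 751, 718 and 727 in mock and 504, 679.9 and 647 in P351A plus ALA (adjusted p = 0.384). The blood mir-142 and mir-223 and the liver mir-122 did not reach a mean of 10 scaled reads: in the 6 libraries mir-142 ran from 0 to 12.6 scaled reads, mir-223 from 0 to 31, and mir-122 was at 0 in all 6. Whether other cells had a part in the result was not tested.

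Properties of the hairpins were compared by medians, with no test. RefSeq held 273 of the 336 tested hairpins, and both mature arms for 191. UGU, the motif that DGCR8 is known to recognise in the apical loop, lay between the arms of 78 of these (40.8%, beside 33.7% of 739 RefSeq hairpins with both arms), read on the hairpin strand only. The median log2 fold change was 1.26 with UGU (49 rose, 2 fell) and 0.95 without (113 hairpins, of which 62 rose and 7 fell). Rises made up 62.8% with UGU and 54.9% without, beside 58.1% of all 191. Among hairpins at or above the median level the medians were 1.55 (45 hairpins) and 1.24 (56). Hairpins with numbers under 1200, the earlier annotated ones, had a median of 1.20 (228 hairpins; 145 rose, 15 fell), and those numbered 1200 or higher -0.052 (108 hairpins; 21 rose, 15 fell). By GC content the medians were 1.41 under 45% (50 hairpins), 1.10 from 45% to 55% (61) and 0.90 at 55% or more (80).

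A separate table sets 1 parental HCT116 library beside 1 DGCR8ΔCTT library, with no replicates. It lists 294 hairpins, each at 50.7 or more in at least 1 library, from 5122793 parental and 168798 DGCR8ΔCTT reads. Hairpins low in both libraries are absent, so the share lower in DGCR8ΔCTT cells holds for this list only. After the authors' scaling the totals were 3287342 in the parental and 168798 in the DGCR8ΔCTT library. On that scale, 223 of the 260 hairpins shared with the tested set were at least 4-fold lower in DGCR8ΔCTT cells. The split was not made under another scaling, and its count depends on the scale. These 223 had a median log2 fold change of 1.26 in P351A plus ALA over mock (143 rose, 9 fell), and the other 37 had 0.22 (12 rose, 8 fell). Across the 260 hairpins the 2 log2 changes had a Spearman rho of 0.204 and a Pearson r of 0.341, given as a description across hairpins, which share library depth and level.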

How the data were processed

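Total RNA was cut to 17 to 30 nt on a 15% gel and made into small RNA libraries, per the labels' protocols. The submitters' processing notes name cutadapt 1.14, Bowtie2 and the builds hg38 and GRCh38. For the counting rule and the scale factors, the source is not stated there. The deposited rescue table holds, per hairpin, a signal that is whole reads times 1 factor per library: all values in the 15 columns came out whole (tolerance 0.001), and for 1 mock column and the DGCR8ΔCTT column the deposited values are the read counts themselves. The 3 columns headed KO were taken as the mock rescue, the only rescue group whose sample titles match no column. Their numbers could not be tied to those samples, so they are called a, b and c.

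limma 3.58.1 (R 4.3.3) was fitted to log2(signal + 1) over all 15 rescue libraries with a variance trend. Tests were 2-sided, with Benjamini-Hochberg adjustment over all tested hairpins (mean of 10 or more). The fit was tested on simulated counts with the same spread setting in every library and no shift of the typical hairpin. That test therefore does not cover the scale or the uneven replicates seen here. The alternatives were 3 other scalings, pseudocounts of 0.1 and 10, no filter and a mean of 100 or more, a fit of the 2 groups, no trend, each library left out, and edgeR 4.0.16 (TMM) and DESeq2 1.42.0 on the recovered reads, which called 178 and 179 hairpins. edgeR with the authors' scale factors was added after seeing the data and called 184.

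Named hairpins were the 10 largest rises and 10 largest falls by log2 fold change among called hairpins at or above the median level whose groups did not overlap, with copies counted once; the highest and lowest member of each list; 5 DGCR8-independent hairpins; and the 5 most abundant names in each group. The members and lists were chosen with earlier results of these data known. Intervals and limits on low reads cover counting error only, since reads carry no molecular identifiers. Positions are GRCh38 (GENCODE 29).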

Additional observations from a re-analysis of the deposited data

Results flagged for a closer look

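The change over mock differed between rescues that share the mock libraries. Tested directly, 160 of the tested hairpins differed between P351A plus ALA and P351A alone, and 114 differed between P351A plus ALA and wild-type DGCR8 (limma, adjusted p under 0.05). In the first set 150 were higher with ALA and 10 lower; in the second 46 were higher and 68 lower. In the first set mir-149 had a log2 difference of 3.97; in the second, mir-373 had no read in P351A plus ALA.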

How the results depend on the processing

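The choice of scale moved the results most. Median centring gave 85 rises and 95 falls (median log2 fold change 0.026), centring on the DGCR8-independent list 64 and 75 (0.059), equal totals 51 and 144 (-0.55), edgeR with TMM 80 and 98 (-0.0078) and DESeq2 87 and 92 (0.094). edgeR with the authors' factors, chosen after seeing the data, gave 157 and 27. Without a filter the median was 0.27, and a mean of 100 or more left 160 hairpins with 104 rises and 15 falls. Leaving out 1 library gave 124 to 167 rises and 21 to 26 falls. Of 90 hairpins followed, 64 kept direction and side of the threshold in all 6 such fits, and all 90 with both pseudocounts.

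Log2 changes of named hairpins and lists above 0 turned below it as follows. With equal totals: let-7b -0.39, mir-1226 -0.93, mir-125b-1 -0.79, mir-130b -0.86, mir-143 -0.19, mir-148b -1.01, mir-151a -0.53, mir-151b -0.93, mir-15b -0.51, mir-17 -1.38, mir-181a-2 -0.38, mir-182 -0.95, mir-183 -0.52, mir-191 -0.90, mir-192 -0.64, mir-200a -1.19, mir-200c -0.66, mir-215 -0.63, mir-221 -0.0074, mir-24-1 -0.76, mir-27a -0.53, mir-28 -0.057, mir-29b-1 -0.74, mir-30e -0.54, mir-320a -0.86, mir-320b-2 -1.18, mir-425 -0.37, mir-877 -0.93, mir-9-1 -0.21, mir-96 -0.59, mir-99b -0.69, miR-181 family median -0.21, miR-200 family median -0.66, mir-183 cluster median -0.59, mir-192 clusters median -0.094, mir-23 clusters median -0.47, miR-26 family median -0.34, miR-130 family median -0.50, miR-28 family median -0.53, DGCR8-independent median -0.86 and other-cell-type list median -0.21. With median centring: mir-1226 -0.32, mir-125b-1 -0.17, mir-130b -0.24, mir-148b -0.38, mir-151b -0.30, mir-17 -0.75, mir-182 -0.32, mir-191 -0.27, mir-192 -0.026, mir-200a -0.56, mir-200c -0.040, mir-215 -0.12, mir-24-1 -0.14, mir-29b-1 -0.12, mir-320a -0.23, mir-320b-2 -0.55, mir-877 -0.30, mir-99b -0.058, miR-200 family median -0.040 and DGCR8-independent median -0.25. With DGCR8-independent centring: mir-1226 -0.28, mir-125b-1 -0.13, mir-130b -0.20, mir-148b -0.35, mir-151b -0.27, mir-17 -0.72, mir-182 -0.28, mir-191 -0.23, mir-200a -0.53, mir-200c -0.0068, mir-215 -0.085, mir-24-1 -0.11, mir-29b-1 -0.084, mir-320a -0.20, mir-320b-2 -0.52, mir-877 -0.27, mir-99b -0.025, miR-200 family median -0.0068 and DGCR8-independent median -0.21. With edgeR and TMM: mir-1226 -0.41, mir-125b-1 -0.18, mir-130b -0.30, mir-148b -0.45, mir-151b -0.38, mir-17 -0.87, mir-182 -0.39, mir-191 -0.34, mir-192 -0.067, mir-200a -0.66, mir-200c -0.055, mir-215 -0.12, mir-24-1 -0.11, mir-29b-1 -0.17, mir-320a -0.30, mir-320b-2 -0.62, mir-877 -0.38, mir-99b -0.097, miR-200 family median -0.055 and DGCR8-independent median -0.30. With DESeq2: mir-1226 -0.29, mir-125b-1 -0.088, mir-130b -0.20, mir-148b -0.34, mir-151b -0.27, mir-17 -0.75, mir-182 -0.31, mir-191 -0.24, mir-200a -0.55, mir-24-1 -0.010, mir-29b-1 -0.033, mir-320a -0.22, mir-320b-2 -0.54, mir-877 -0.31 and DGCR8-independent median -0.22. None of these is called fallen on the authors' scale. The DGCR8-independent median under centring on that same list is partly set by the centring.

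Leaving out 1 library turned the sign of some uncalled values: mir-17 ran from -0.22 to 0.53, mir-15a and the miR-15/16 median from -0.46 to 0.27, mir-100 and the miR-99/100 median from -0.40 to 0.24, and mir-196a-1 from -0.21 to 0.18. Against P351A, median centring gave 45 higher and 105 lower, equal totals 74 and 61, and leaving out 1 library 113 to 148 and 2 to 9. Against wild type, median centring gave 103 lower, and leaving out 1 library 24 to 58 higher and 32 to 72 lower. Fits of the 2 groups alone gave 176 and 24 against P351A and 18 and 31 against wild type. With the replicate block in those fits the counts were 184 and 25, and 0 and 6. Same-numbered libraries did not deviate together throughout (r of 0.26, -0.034 and 0.051 with P351A; 0.22, -0.20 and 0.11 with wild type), so the numbers are not taken to pair the libraries. No paired analysis was possible because the numbers of the mock columns could not be tied to the labelled samples, for P351A plus ALA against mock. The planned CNNC and UG motifs were not run, since the hairpin sequences end near the arms. The cause of these shifts was not tested. The shallowest mock library, with 146023 reads, limits what can be said of hairpins near the filter.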
